A study of Mus musculus with 17 samples.

Results

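Hepatocytes of mice labelled as double knockouts of the sphingomyelin synthases Sgms1 and Sgms2 (genotype label Sms1/Sms2-dKO, here dKO) were compared with wild-type (WT) hepatocytes across all genes. The comparison took 6 of the 17 RNA libraries of the series, chosen by their labels: WT replicates 1 to 3 and dKO replicates 4 to 6. The other hepatocyte libraries, tKO replicates 7 to 9 (Sms1/Sms2/Smsr-tKO), are labelled with both of these lesions and a lesion of Samd8, the gene of the sphingomyelin synthase-related protein SMSr. They entered the same fit, and their values are given where they show which features of dKO they did not share. The remaining libraries were livers of WT and SMSrKO mice on a high-fat diet with fructose, used here only as a second measure of spread. All hepatocytes came from mice 2 months old and were freed from the liver with collagenase, with n = 3 per group. The labels give no sex, no strain and no account of how the genes were deleted. They do not say that each library came from its own animal, and p-values then cover only the spread among these preparations, which may be technical.

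Sphingomyelin synthases move the phosphocholine head group of phosphatidylcholine onto ceramide, which yields sphingomyelin and diacylglycerol. Sgms1 protein acts in the Golgi, Sgms2 protein at the plasma membrane and Golgi, and SMSr sits in the endoplasmic reticulum (ER). In the liver the Sgms1 and Sgms2 proteins stand between ceramide and the sphingomyelin of membranes and secreted lipoproteins. Ceramide is also a substrate of ceramidases, of ceramide kinase and of glucosylceramide synthase.

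RNA of the targeted genes was not lost in the libraries labelled dKO. Sgms1 (chr19:32122727-32389885) measured 51.1, 52.2 and 45.9 CPM (counts scaled to a common library total) in the WT libraries and 85.1, 96.2 and 90.3 CPM in the dKO libraries, so that every dKO library lay above every WT library. Sgms2 (chr3:131318985-131491443) measured 183, 175 and 191 CPM in WT and 164, 154 and 133 CPM in dKO, lower in all 3 dKO libraries. Samd8, which is not targeted in dKO, measured 66.00, 69.8 and 73.1 CPM in WT and 75.1, 82.8 and 86.9 CPM in dKO. Counts per gene do not show which exons the reads cover, so they cannot tell an intact transcript from one without the deleted part. All directions below are therefore those of the libraries labelled dKO against the libraries labelled WT.

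The 6 libraries held between 9221488 and 9394139 expected counts, and the WT files listed 13246 to 13320 genes against 13844 to 13921 in the dKO files. Replicates lay close together, with a common coefficient of variation of 3.52% beyond counting noise, against 20.3% in the liver libraries of the series. Of 15632 genes listed in at least 1 hepatocyte file, 11471 passed the filter on low counts and were tested. A gene is called here where edgeR's quasi-likelihood test gave an adjusted p below 0.05. In dKO 5045 genes were called, 44.0% of those tested; 2749 of them (24.0%) were higher and 2296 (20.0%) were lower than in WT. Counts of list members below are to be read against these shares. The median absolute log2 fold change of all tested genes was 0.19, so most calls are small. At least 2-fold changes were less even, with 734 genes higher (6.40%) and 115 lower (1.0%). Upper quartile scaling moved the median of all genes from -0.01 to -0.05 and the higher share of calls from 54.5% to 44.0%, so the split between small rises and small falls depends on the scaling. With the spread of the liver libraries applied to every gene, called the liver dispersion below, 869 genes (7.58%) were called higher and 186 (1.62%) lower.

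**Figure D1:**
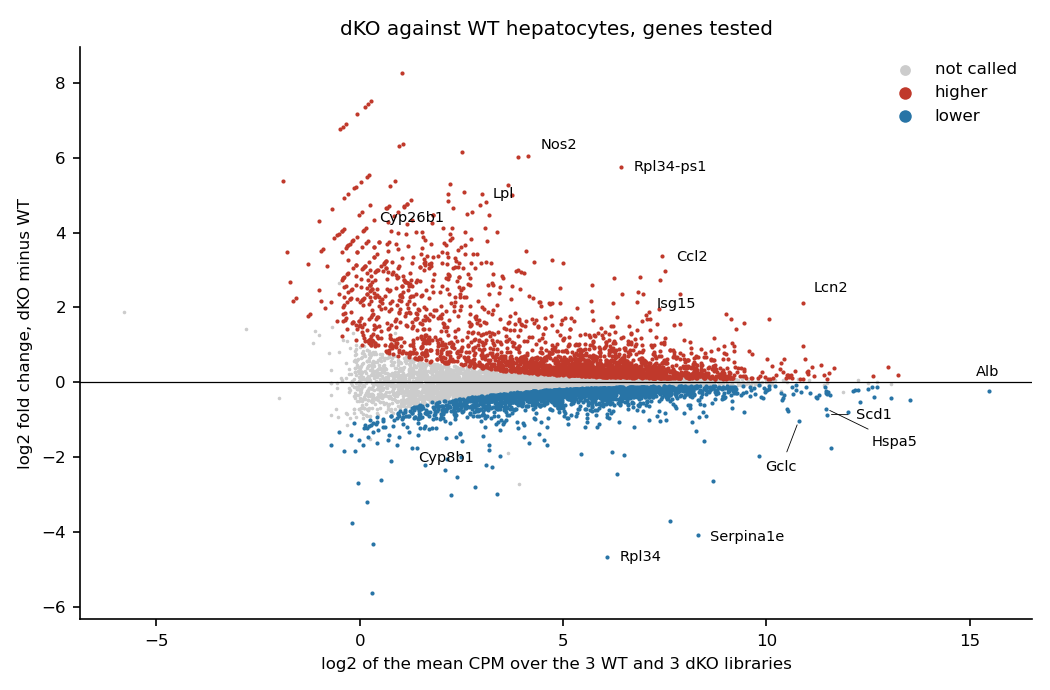
Each point is 1 tested gene, with its mean level over the 6 libraries (log2 CPM, x axis) and its log2 fold change, dKO minus WT (y axis); red and blue mark the 2749 genes called higher and the 2296 called lower, and 1 tested gene without a count in these libraries is not drawn. The largest changes lie above the line at low and middle levels. Abundant genes lie on both sides, such as Lcn2 above the line and Hspa5, Scd1 and Gclc below it.

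Genes of the antiviral interferon response were higher in dKO, from sensors through transcription factors to effectors. Interferons are cytokines that signal through Jak kinases, Stat2 and Irf9 to a DNA element, the interferon-stimulated response element (ISRE), in front of their target genes. Of 60 listed interferon response genes 56 were tested, 51 were called higher and 3 lower (with the liver dispersion 31 higher and 1 lower), and their median log2 fold change was 0.82 against -0.01 over all genes. The filter can favour genes that are high in 1 group only; of the 52 members with at least 10 counts in every WT library, 47 were higher and 3 lower, where 21.5% of all genes at that level were higher and 21.3% lower.

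The promoters of members that moved together are shown because many hold an ISRE. The element was searched as GAAANNGAAA on both strands, from 250 bases before to 50 after each gene's start in RefSeq (GRCm38.p6), and 3.44% of all 32851 such windows hold it. Among the members called higher it was found in 17 of 39 interferon response genes with a window (43.6%), in 9 of 10 interferon-induced GTPase genes (90.0%) and in 6 of 19 antigen presentation genes (31.6%), against 3.82% of all tested genes with a window. Of the other interferon response members with a window, 0 of 3 called lower and 1 of 1 not called held it. The lists gather genes known to respond to interferon, so a high share can follow from that choice alone. The stretches below are 100 bases around the element, written 5′ to 3′ along the gene, with the element or its overlapping copies in capitals. They come from the 6 members called higher with the smallest p that hold the element before the start. Windows on a single chromosome were left out of this choice. A match of letters is a description and shows no binding.
Gbp2 (chr3:142620559-142620658, + strand): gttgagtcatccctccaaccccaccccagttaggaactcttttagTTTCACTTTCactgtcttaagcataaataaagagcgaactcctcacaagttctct
Gbp3 (chr3:142559944-142560043, + strand): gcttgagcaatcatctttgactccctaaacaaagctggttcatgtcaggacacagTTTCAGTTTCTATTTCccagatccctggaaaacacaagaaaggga
Isg15 (chr4:156200830-156200929, - strand): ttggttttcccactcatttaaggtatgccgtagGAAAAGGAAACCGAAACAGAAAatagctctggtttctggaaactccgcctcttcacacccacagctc
Oas1a (chr5:120907526-120907625, - strand): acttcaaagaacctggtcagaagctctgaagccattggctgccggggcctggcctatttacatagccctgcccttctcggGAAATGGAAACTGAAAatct
Tgtp1 (chr11:48992269-48992368, - strand): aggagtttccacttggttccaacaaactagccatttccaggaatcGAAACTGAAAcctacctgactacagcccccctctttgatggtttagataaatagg
Bst2 (chr8:71537542-71537641, - strand): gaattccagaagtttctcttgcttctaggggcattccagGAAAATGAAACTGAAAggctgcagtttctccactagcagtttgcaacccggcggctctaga

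Of the 7 tested sensors of foreign nucleic acid, 6 were higher and 1 was lower. Zbp1, a sensor of Z-form nucleic acid, measured 57.01, 63.02 and 60.2 CPM in WT and 177, 192 and 194 CPM in dKO, and the groups did not overlap. Such separation was common: in 26.7% of tested genes all dKO libraries lay above all WT libraries, and in 25.1% all lay below. The RNA sensors Ddx58 (RIG-I), Ifih1 (MDA5) and Dhx58 rose by 0.80, 0.66 and 1.08 on the log2 scale. Mavs, the mitochondrial adaptor through which RIG-I and MDA5 signal, went the other way, with 61.8, 52.9 and 58.9 CPM in WT and 36.1, 32.03 and 38.4 CPM in dKO (log2 fold change -0.70 ± 0.08 SE, adjusted p = 5.52e-12 in edgeR).

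Among the 13 tested receptors and transcription factors 9 were higher and 2 lower. Irf7, the factor that amplifies type I interferon production and is itself induced by interferon, measured 74.5, 83.6 and 84.2 CPM in WT and 235, 242 and 230.5 CPM in dKO, with no overlap. Stat2, a signal transducer of the pathway, and Irf9, its DNA-binding partner, rose less, by 0.36 and 0.29 on the log2 scale. Irf3, the constitutive factor downstream of the sensors, fell by 0.23, and Ifnar1, a chain of the type I interferon receptor, fell by 0.19, while the other chain Ifnar2 rose by 0.39. The interferon genes gave almost no reads: Ifnb1 was at 0 CPM in WT and 0.0358 CPM in dKO.

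All 36 tested effectors were called higher. Rsad2 (viperin), an antiviral enzyme, was the most abundant of them in dKO, with 194, 233 and 245 CPM in WT and 795, 836 and 772 CPM in dKO. Ifit3, which binds foreign RNA with its relatives, rose from 62.9, 81.2 and 82.1 CPM to 377, 399.6 and 394 CPM. Isg15, a ubiquitin-like modifier whose promoter is shown above with 3 overlapping copies of the element, rose from 51.7, 61.3 and 61.98 CPM to 199.9, 208 and 204 CPM. In each of these 3 genes the lowest dKO library stood above the highest WT library, and WT replicate 1 was the lowest of the WT libraries. Oas1a, which makes the second messenger that activates RNase L, rose by 2.53 ± 0.10 (adjusted p = 7.83e-38 in edgeR), Mx1, an antiviral dynamin-like GTPase, by 2.48, and Bst2 (tetherin), which holds budding virus at the membrane, by 0.86. The smallest change of an effector was that of Eif2ak2 (PKR), the kinase that halts translation, at 0.21.

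The Gbp and Irg families, GTPases that attack vacuoles of intracellular pathogens and are classic targets of interferon gamma, rose with them. Of 17 tested members 16 were higher and none was lower (with the liver dispersion 13 higher and none lower), with a median log2 fold change of 1.19. Of the 14 with at least 10 counts in every WT library 13 were higher and none lower. Gbp2 measured 29.3, 28.1 and 28.6 CPM in WT and 143, 146 and 153 CPM in dKO, and Gbp3 measured 39.4, 42.5 and 42.1 CPM and 178, 183 and 189 CPM. In both genes the lowest dKO library was several-fold above the highest WT library. Tgtp1 rose by 1.5 and Gvin1, a very large inducible GTPase, by 1.53, from 115, 99.6 and 110.1 CPM to 308, 314 and 318 CPM. In tKO Gvin1 was higher again, at 657, 582 and 630.5 CPM (tKO minus dKO 0.99, adjusted p = 1.92e-32 in edgeR), whereas Tgtp1 and Isg15 gave no call between the knockout groups. The remaining tested member, Gbp11, measured 5.81, 5.73 and 6.29 CPM in WT and 4.80, 4.51 and 4.96 CPM in dKO and was not called.

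Antigen presentation genes were higher as well, 21 of 23 tested with none lower (with the liver dispersion 13 higher and none lower) (median log2 fold change 0.74). Of the 19 with at least 10 counts in every WT library 18 were higher and none lower. All 17 tested genes of the class I pathway, which shows peptides of the cell's own proteins to CD8 T cells, were higher. The immunoproteasome subunits Psmb9, Psmb8 and Psmb10, which replace constitutive subunits and alter the cut peptides, rose by 1.44, 1.22 and 1.03. Tap1, a subunit of the peptide transporter, measured 82.4, 92.2 and 91.6 CPM in WT and 155, 161 and 154 CPM in dKO, and the class I heavy chain H2-K1 measured 1121, 1146 and 1145 CPM and 1424, 1442 and 1469 CPM. Neither gene's groups overlapped, although H2-K1 rose by 0.35 only. Class I genes are near-identical copies of each other, so the split of reads between them is uncertain. The class II genes H2-Aa, H2-Eb1 and Cd74, typical of professional antigen-presenting cells, were low: Cd74 measured 1.75, 1.41 and 1.95 CPM in WT and 8.76, 8.49 and 11.2 CPM in dKO, and Ciita, their master regulator, had a mean of 0.0718 CPM in dKO.

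**Figure D2:**
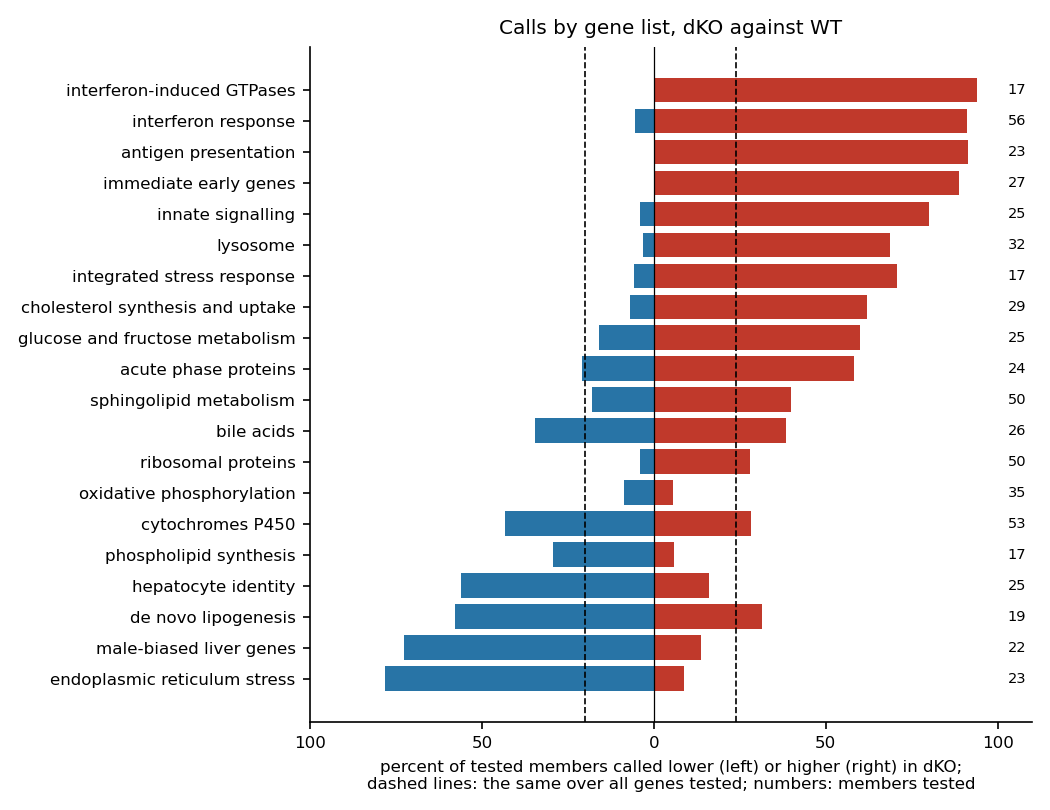
Bars give the percent of the tested members of 20 gene lists that were called lower (blue, left) or higher (red, right) in dKO; the number of tested members stands at the right, and dashed lines mark 20.0% lower and 24.0% higher over all tested genes. Interferon-induced GTPases, interferon response, antigen presentation and immediate early genes lie far to the right, and ER stress, male-biased and lipogenesis genes to the left.

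Markers of other liver cell types moved with these changes. The 20 listed markers of liver endothelial cells summed to between 43.8 and 49.7 CPM in WT, 259 and 276 CPM in dKO, and 155 and 167 CPM in tKO. All 18 that were tested were higher, and so were all 10 with at least 10 counts in every WT library. Cdh5, the cadherin of endothelial junctions, rose from 5.48, 6.16 and 7.26 CPM to 57.8, 61.9 and 54.4 CPM, with no overlap, and measured 31.3, 32.98 and 31.4 CPM in tKO. In bulk RNA, fewer cells of a type and less RNA per cell cannot be told apart, and neither can more cells from more RNA per cell. Markers of stellate cells and fibroblasts summed to 34.0 to 38.8 CPM in WT and 107 to 117 CPM in dKO; 8 of 11 tested were higher, but of the 3 with at least 10 counts in every WT library 1 was. The defining stellate gene Lrat had means of 0 and 0.0717 CPM and Acta2 of 0 and 0.215 CPM.

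Macrophage markers summed to 342 to 355 CPM in WT and 495 to 508 CPM in dKO, with 8 of 9 tested higher and 1 lower; of the 3 tested markers with at least 10 counts in every WT library 2 were higher and 1 lower. Most of that sum came from Slc40a1, which hepatocytes also express, from Cd68 and from Mpeg1. The defining Kupffer cell markers Clec4f, Vsig4 and Adgre1 did not pass the filter, with means of 1.002, 0.179 and 1.14 CPM in dKO and 0.0727, 0 and 0.109 CPM in WT. Neutrophil markers summed to 0.99 to 1.19 CPM in WT and 1.73 to 2.58 CPM in dKO, B cell markers to 0.325 to 0.658 and 1.92 to 2.37 CPM, of which only Jchain was tested, and T, NK and mesothelial markers to less than 3 CPM in every library. Cholangiocyte markers summed to 285 to 295 CPM in WT, 439 to 468 CPM in dKO and 305 to 325 CPM in tKO, with 3 higher and 2 lower of 7 tested; Sox9 and Prom1 carried the difference, and the defining keratin Krt7 had means of 0.0731 CPM in WT and 0.0356 CPM in dKO. Hepatocyte markers, in contrast, summed to between 65138 and 66978 CPM in WT and between 57324 and 58696 CPM in dKO. Most of that sum was Alb, albumin, with means of 48740 and 41770 CPM, and of the 16 markers 2 were higher and 8 lower (none called with the liver dispersion). The part of other cells in the interferon, chemokine and matrix results was not tested.

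**Figure D3:**
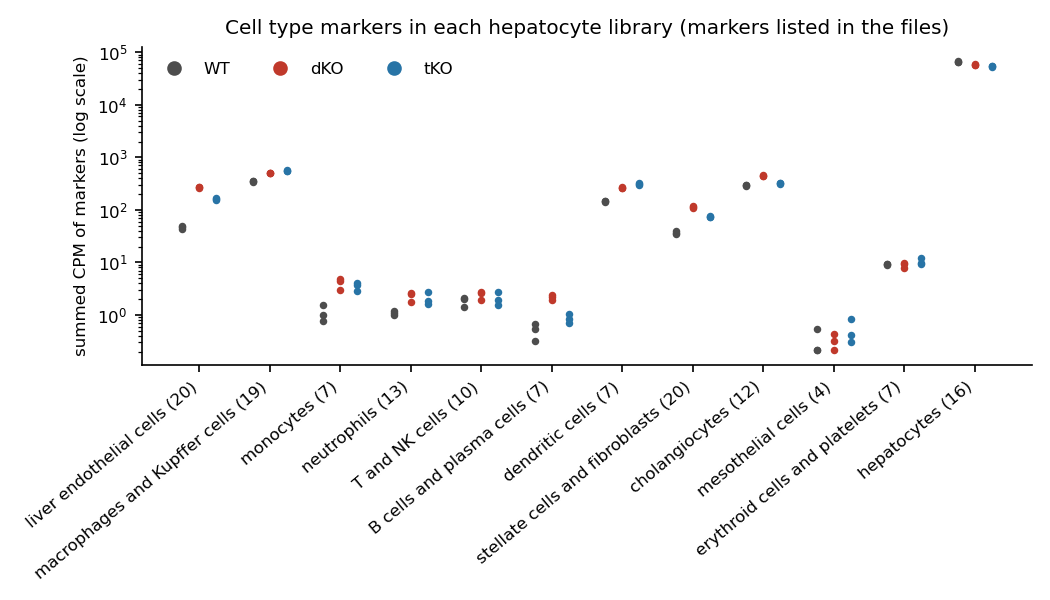
Each dot is 1 hepatocyte library, with the summed CPM of the markers of a cell type on a log scale (y axis) and the number of markers listed in the files in brackets. Endothelial and stellate sums in dKO (red) lie above WT (grey) and tKO (blue), while neutrophil, T and NK, B and mesothelial sums stay below 3 CPM.

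Chemokines and their upstream signals were higher. Of 62 listed chemokine, cytokine and receptor genes only 36 passed the filter; 30 of these were higher and 1 lower (with the liver dispersion 22 higher and none lower). Of the 30 with at least 10 counts in every WT library 24 were higher and 1 lower. Cxcl10, a chemokine for activated T cells, measured 57.7, 67.3 and 77.7 CPM in WT and 238, 276 and 272 CPM in dKO. Cxcl9, its close relative, measured 25.2, 24.4 and 26.00 CPM and 23.8, 21.8 and 26.1 CPM and was not called. Csf3, the growth factor of neutrophils, had 1 count over the 3 WT libraries and 3.42, 4.62 and 4.31 CPM in dKO. Il1rn, which blocks the interleukin 1 receptor, had the largest absolute rise among the cytokines other than chemokines, from 42.4, 42.8 and 46.5 CPM to 280.1, 297 and 293 CPM, and stood at 198, 207 and 205 CPM in tKO, between the other groups (Il1rn, tKO minus dKO -0.51). Interleukin 6 had no count in WT and 28 counts over the dKO libraries, which is at least 9.33-fold higher against a floor of 3 counts over the group. Lifr, the receptor of leukaemia inhibitory factor, was the member called lower and fell by 0.61.

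Of 13 tested subunits and inhibitors of the transcription factor NF-kB 12 were higher and none lower. The largest changes were those of the inhibitors Nfkbia and Tnfaip3, which end the response and are its own targets, at 1.39 and 1.35 on the log2 scale, and the subunits Nfkb1 and Rela rose by 0.45 and 0.21. Nfkbia measured 60.5, 61.7 and 63.9 CPM in WT and 161, 162 and 166 CPM in dKO, a clear separation. Cd14, a co-receptor for endotoxin, and Tlr2, a receptor for bacterial lipoprotein, rose by 0.76 and 1.03; Tlr5, the flagellin receptor, fell by 1.35. The prostaglandin E synthase Ptges rose by 1.24, and Hpgd, the enzyme that degrades prostaglandins, fell by 1.10, from 51.2, 43.2 and 47.7 CPM to 22.96, 23.8 and 19.4 CPM.

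Immediate early genes, which respond within minutes to growth factors, stress and cell isolation, were higher in 24 of 27 tested and lower in none (with the liver dispersion 12 higher and none lower) (median log2 fold change 0.56). Fosb measured 3.40, 3.24 and 2.82 CPM in WT and 21.4, 18.7 and 15.7 CPM in dKO, and Klf4, a factor of differentiation and vascular responses, measured 4.93, 4.22 and 3.47 CPM and 14.8, 13.97 and 15.8 CPM. In both the dKO values were several times the WT values, with no overlap. Egr1, Jun and Junb rose by 0.70, 0.51 and 0.69, and Zfp36, which destabilises cytokine mRNA, by 1.09.

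**Figure D4:**
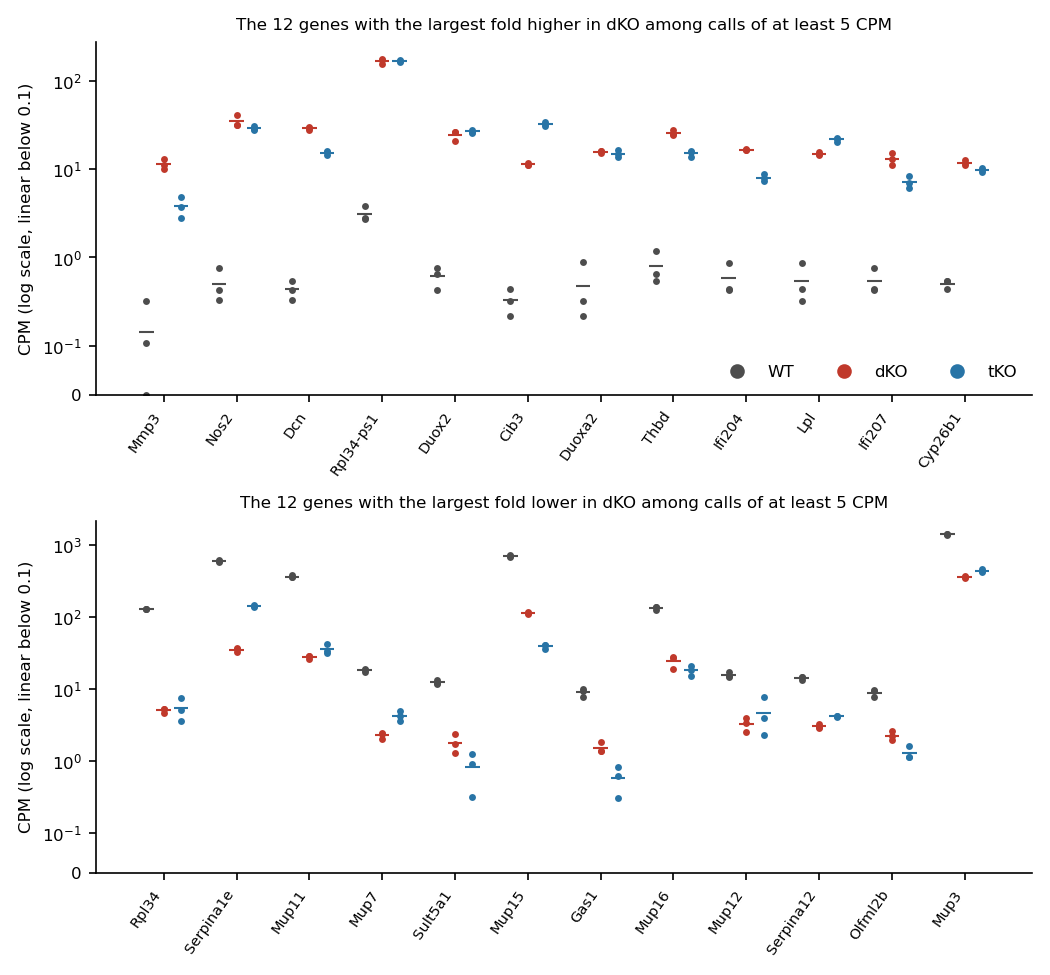
Dots are libraries (WT grey, dKO red, tKO blue) and bars the group means, in CPM on a log axis that is linear below 0.1, for the 12 genes with the largest fold in each direction among calls of at least 5 CPM whose WT and dKO libraries do not overlap. That separation was a condition of the choice; tKO differs from dKO for some of them, such as Cib3, Serpina1e and Gas1.

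The genes with the largest folds were not all of 1 kind. Nos2, the inducible nitric oxide synthase, measured 0.329, 0.757 and 0.433 CPM in WT and 40.7, 31.9 and 31.6 CPM in dKO. Cyp26b1, which degrades retinoic acid, measured 0.439, 0.540 and 0.542 CPM and 12.7, 11.6 and 11.2 CPM, and Lpl, the lipase that normally works outside the adult liver on lipoprotein triglyceride, 0.439, 0.324 and 0.867 CPM and 14.8, 14.5 and 15.5 CPM. All of these went from near the detection limit to a measurable level in all 3 dKO libraries. Ifi204 and Ifi207, of the interferon-inducible p200 family of DNA sensors, rose by 4.81 and 4.55, and were lower in tKO than in dKO (Ifi204, tKO minus dKO -1.06; Ifi207, -0.87). Among the falls, Gas1, a membrane protein of growth-arrested cells, went from 7.67, 10.1 and 9.32 CPM to 1.39, 1.83 and 1.40 CPM, and Olfml2b, a secreted olfactomedin-like protein, from 9.87, 7.67 and 9.43 CPM to 2.24, 1.94 and 2.59 CPM.

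The pair Rpl34 and Rpl34-ps1 gave the largest fold of all falls, and 1 of the 12 largest of all rises, among calls of at least 5 CPM. Rpl34 (chr3:130726827-130730398), a protein of the large ribosomal subunit, measured 129, 130.3 and 129.6 CPM in WT and 5.23, 5.37 and 4.64 CPM in dKO, and its processed pseudogene Rpl34-ps1 (chr6:71124589-71125001) measured 2.74, 3.78 and 2.82 CPM and 173, 157 and 175 CPM. The tKO libraries resembled dKO, at 5.16, 7.59 and 3.56 CPM for the gene and 169.6, 171 and 165 CPM for the pseudogene. The copies are near-identical, so the assignment of reads between them is uncertain and neither change can be read as one of the gene alone. Whether a sequence difference between the lines near Sgms2 moves this assignment was not tested. Their sum was 131.5, 134.1 and 132.4 CPM in WT and 177.9, 162.2 and 179.8 CPM in dKO, a ratio of 1.31. Rpl34 lies 0.589 Mb from Sgms2 on the same chromosome. Within 5 Mb of Sgms2, a window chosen after values were seen, 8 of 32 tested genes were higher and 11 lower, and within 5 Mb of Sgms1 18 of 49 were higher and 9 lower (25.0% and 36.7% higher, 34.4% and 18.4% lower, against 24.0% and 20.0% of all tested genes). Near Sgms1 11 of the 49 were higher by at least 2-fold (22.4%, against 6.40% of all tested genes), and 5 of these 11 are genes of the interferon-induced Ifit cluster. Ribosomal protein genes other than Rpl34 moved little. With Rpl34 counted, 14 of 50 tested were higher and 2 lower (with the liver dispersion none higher and 1 lower). Their median log2 fold change was 0.06. Leaving out 1 WT or dKO library at a time gave 8 to 18 higher, with 9 without dKO replicate 5 and 8 without dKO replicate 6.

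Acute phase proteins, which the liver secretes in inflammation, moved in both directions. Of 24 tested genes 14 were higher and 5 lower (with the liver dispersion 7 higher and 1 lower) (median log2 fold change 0.32). Saa3, an inducible serum amyloid A, measured 32.01, 24.4 and 33.9 CPM in WT and 316, 300.5 and 328 CPM in dKO, and Crp, C-reactive protein, 261, 260.2 and 273 CPM and 839, 857 and 889.6 CPM. The fibrinogen chain Fga, also counted among acute phase proteins, went down in all 3 libraries, from 6055, 5911 and 5767 CPM to 4142, 4128 and 4072 CPM, and Fgb fell by 0.38 and Fgg fell by 0.43. All 24 genes were called lower in tKO than in dKO, where 15.2% of all tested genes were called lower and 14.3% higher in that contrast (29.5% in all). The contrasts dKO against WT and tKO against dKO share the dKO libraries, so a value that is off in dKO enters both. Saa3 and Crp measured 219, 199 and 219 CPM and 756, 725 and 684 CPM in tKO, still above WT.

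Complement and coagulation genes gave 27 higher and 11 lower of 50 tested (with the liver dispersion 14 higher and none lower), and 19 higher and 11 lower of the 42 with at least 10 counts in every WT library. C6, a part of the membrane attack complex, rose by 2.31, from 5.70, 6.59 and 5.63 CPM to 27.98, 30.5 and 30.7 CPM, and was higher still in tKO at 60.98, 64.2 and 60.4 CPM (C6, tKO minus dKO 1.06). Cfb, of the alternative pathway, rose from 1302, 1299 and 1267 CPM to 2479, 2492 and 2635 CPM, and its Cfb level in tKO gave no call against dKO. F3, tissue factor, rose by 1.42 and Procr, the endothelial protein C receptor, by 3.05. Plg, Serpinc1 and F9, abundant products of hepatocytes, were not called.

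Genes of protein folding in the ER were lower in dKO than in WT, and most were higher in tKO than in dKO. These chaperones and disulfide isomerases fold secreted proteins and are induced through Atf6, Ern1 and Xbp1 when unfolded proteins accumulate. Of 23 tested members 18 were lower and 2 higher (with the liver dispersion none higher and 6 lower) (median log2 fold change -0.35), and 20 were higher and 2 lower in tKO than in dKO. In the contrast tKO against dKO 14.3% of all tested genes were called higher and 15.2% lower. Both contrasts share the dKO libraries, so they are not independent. The summed level of the ER members was 12390 to 12730 CPM in WT, 9027 to 9190 CPM in dKO and 11840 to 12190 CPM in tKO, so that dKO lay below both other groups and tKO just below WT.

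The ER stress element, searched as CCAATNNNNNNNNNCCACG on both strands of the same promoter windows, was found in 9 of the 16 members called lower that have a window (56.2%). It was found in 0 of 2 called higher, in 0 of 2 not called and in 0.195% of all tested genes with a window. It occurs in 0.119% of all windows. This list gathers known ER stress genes, so a high share can follow from that choice alone. The 4 stretches below were chosen after values were seen, by the smallest p among members called lower that hold the element before the start. The same chromosome was left out, and the capitals mark the element on either strand.
Hspa5 (chr2:34771984-34772083, + strand): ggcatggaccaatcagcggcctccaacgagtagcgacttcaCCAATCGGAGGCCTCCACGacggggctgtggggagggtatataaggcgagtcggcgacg
Hsp90b1 (chr10:86705493-86705592, - strand): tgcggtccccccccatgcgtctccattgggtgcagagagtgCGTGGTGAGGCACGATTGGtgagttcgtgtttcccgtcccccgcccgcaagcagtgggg
Creld2 (chr15:88819479-88819578, + strand): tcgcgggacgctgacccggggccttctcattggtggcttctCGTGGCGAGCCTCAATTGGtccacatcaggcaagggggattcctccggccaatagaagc
Dnajc3 (chr14:118937786-118937885, + strand): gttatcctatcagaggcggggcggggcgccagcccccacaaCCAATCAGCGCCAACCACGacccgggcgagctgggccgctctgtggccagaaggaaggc

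Hspa5 (BiP), the main chaperone of the ER, measured 3377, 3585 and 3545 CPM in WT, 2101, 2138 and 2209 CPM in dKO and 3401, 3123 and 3237 CPM in tKO. The dKO libraries lay below all others, and the log2 fold change of -0.70 ± 0.03 (SE; adjusted p = 4.20e-31 in edgeR) had a counterpart of 0.60 from dKO to tKO. Hsp90b1 (GRP94), which folds receptors and integrins, measured 1820, 1846 and 1791 CPM in WT, 1098, 1132 and 1106 CPM in dKO and 1833, 1688 and 1752 CPM in tKO, the same order. Creld2, a disulfide isomerase-like protein, measured 90.99, 99.2 and 86.8 CPM, 48.8, 49.01 and 45.9 CPM and 98.5, 112 and 101 CPM, and Derl3, of the channel that exports misfolded proteins, 15.6, 14.2 and 12.9 CPM, 6.73, 6.88 and 6.90 CPM and 19.1, 23.6 and 19.5 CPM. Here tKO was at or above WT. The co-chaperone Dnajc3 fell by 0.58, the nucleotide exchange factor Hyou1 fell by 0.62 and the disulfide isomerase Pdia4 fell by 0.80. The members called higher were Herpud1 (0.24), of ER-associated degradation, and Xbp1 (0.16); Dnajb9 and Edem1 were not called.

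Targets of the integrated stress response, which runs through Atf4 after phosphorylation of a translation factor, moved the other way: 12 of 17 tested were higher and 1 lower (with the liver dispersion 4 higher and none lower) (median log2 fold change 0.36). Ddit3 (CHOP), a factor linked to cell death, measured 19.1, 17.5 and 20.5 CPM in WT and 37.6, 31.1 and 35.1 CPM in dKO, without overlap. Atf4 rose by 0.35, Ppp1r15a, which reverses the phosphorylation, by 0.97, and the asparagine synthetase Asns by 0.36. Chac1 and Psat1, further targets, were not called. Cytosolic heat shock genes gave 2 higher and 6 lower of 12 tested (with the liver dispersion 1 higher and none lower); Hspa8, the constitutive HSP70, measured 3496, 3377 and 3335 CPM in WT, 2638, 2636 and 2816 CPM in dKO and 3787, 3885 and 4012 CPM in tKO, so tKO exceeded both. Of 16 tested antioxidant genes of the NRF2 pathway 5 were higher and 5 lower (with the liver dispersion 1 higher and 1 lower). Gclc, the catalytic subunit for glutathione synthesis, had the largest absolute fall of these, from 2385, 2336 and 2424 CPM to 1148, 1173 and 1165 CPM, while Txnrd1, an abundant NRF2 target, measured 957 and 955 CPM and was not called.

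**Figure D5:**
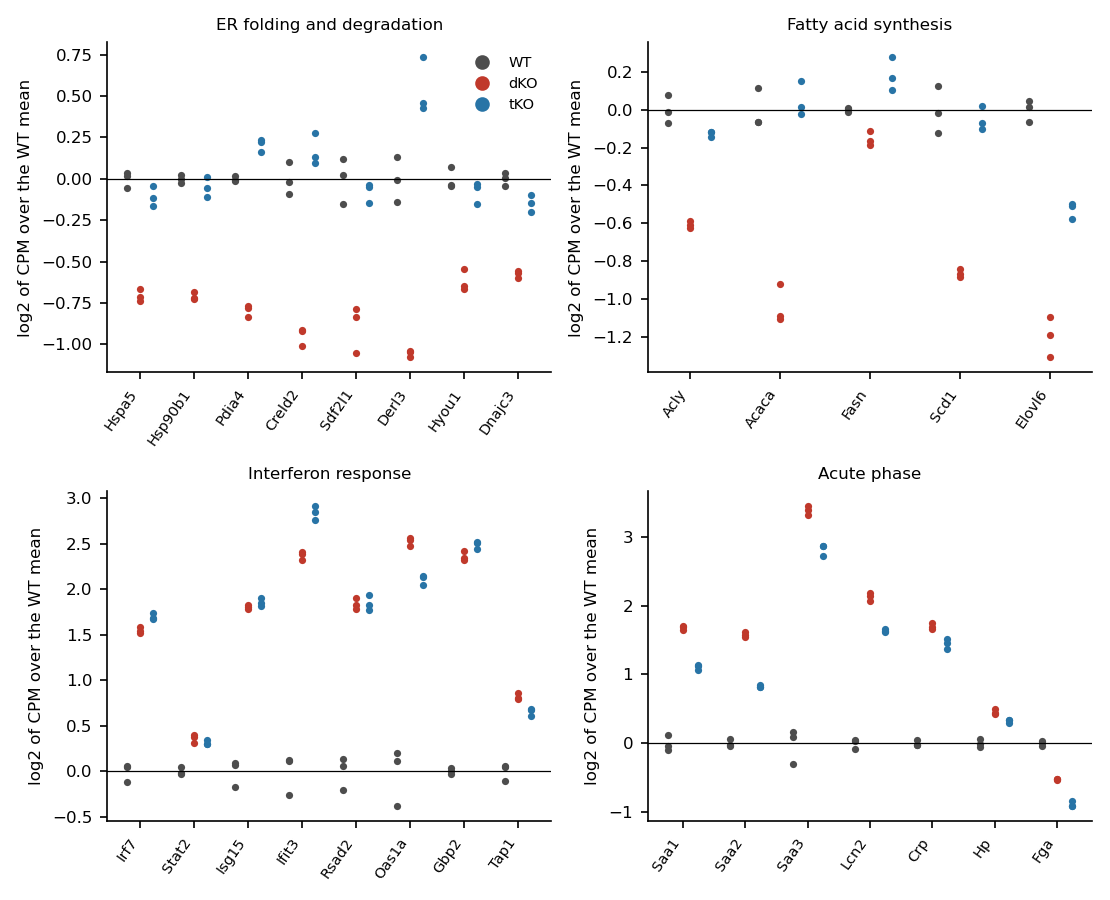
Each dot is 1 library (WT grey, dKO red, tKO blue), placed by the log2 ratio of its CPM to the WT mean of the gene, for members of 4 groups. In the ER panel and for Acly, Acaca and Scd1 the dKO libraries lie below WT with tKO near or above 0, in the interferon panel dKO and tKO both lie above WT, and in the acute phase panel tKO lies below dKO.

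Several enzymes of fatty acid synthesis had the same order of groups. Of 12 tested lipogenic enzymes 9 were lower and 3 higher, and 6 were higher and 3 lower in tKO than in dKO. Here too both contrasts share the dKO libraries and are not independent. The 3 lower in tKO were the desaturases Fads1 and Fads2, which had risen by 0.20 and 0.16 in dKO, and Acss2, which makes acetyl-CoA from acetate and had fallen (-0.18). For the whole lipogenesis list 6 of 19 tested were higher and 11 lower (with the liver dispersion 1 higher and 3 lower). Acaca, acetyl-CoA carboxylase, which makes malonyl-CoA, measured 244, 216 and 216 CPM in WT, 119, 106 and 105 CPM in dKO and 222, 228 and 251 CPM in tKO. Scd1, which desaturates stearate, measured 4069, 3687 and 3428 CPM, 2022, 2079 and 2043 CPM and 3786, 3547 and 3477 CPM. In both genes every dKO library lay below every WT and tKO library. Elovl6, which elongates palmitate, was intermediate in tKO, with 81.5, 75.3 and 79.6 CPM in WT, 36.8, 31.8 and 34.5 CPM in dKO and 55.8, 55.5 and 52.9 CPM in tKO. Fasn, fatty acid synthase, fell by 0.15 only. The transcription factors that drive these enzymes did not move together: Srebf1 rose by 0.37 and Mlxipl (ChREBP) fell by 0.30. Scd2, a relative of Scd1 that is low in adult liver, rose by 1.84.

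Triglyceride and droplet genes were mixed, with 7 higher and 6 lower of 19 tested for synthesis and lipolysis and 5 higher and 7 lower of 23 for uptake and droplets. Over all tested genes 24.0% were higher and 20.0% lower. Dgat2, which adds the last acyl chain to triglyceride, measured 311, 311 and 321 CPM in WT and 578, 560.3 and 593 CPM in dKO, while Dgat1 was not called. Cd36, a fatty acid receptor also found on endothelial cells and macrophages, rose from 16.3, 13.8 and 15.3 CPM to 47.5, 49.5 and 46.6 CPM, and Hilpda, an inhibitor of the lipase Pnpla2, by 1.32. Those 3 genes separated the groups fully. Plin2, the main droplet coat protein and a common measure of stored lipid, measured 682, 676 and 652 CPM and 639, 663 and 676 CPM, and its groups overlapped. Mttp, which loads lipid onto apolipoprotein B, fell by 0.67, Apob itself by 0.34, and the phospholipid transfer protein Pltp from 8.88, 9.19 and 7.69 CPM to 2.67, 2.79 and 3.13 CPM.

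Sphingolipid genes beyond the targeted ones moved in both directions. Of 50 tested 20 were higher and 9 lower (with the liver dispersion 3 higher and none lower), with a median log2 fold change of 0.09. Over all tested genes 24.0% were higher and 20.0% lower. The counts by branch below are small, and lysosomal glycolipid breakdown, with 7 of 11 higher, lay furthest above the first share among them. In the de novo pathway 2 of 11 tested were higher and 2 lower: Sptlc2, of the serine palmitoyltransferase that starts the pathway, measured 113, 111 and 114 CPM in WT and 145, 157 and 151 CPM in dKO, and Degs1, the last desaturase, rose by 0.39. Cers2, the main ceramide synthase of the liver, fell by 0.11. Enzymes that use or break down ceramide were mixed, with 1 higher and 1 lower of 4 tested ceramidases and 2 higher and 2 lower of 5 genes of glycosphingolipid synthesis. Ugcg, glucosylceramide synthase, measured 174, 181 and 186 CPM and 234, 216 and 220.5 CPM, and the lysosomal ceramidase Asah1 57.7, 54.3 and 53.6 CPM and 80.4, 81.4 and 82.6 CPM. The ceramidase Acer3 fell by 0.24, and St3gal5, which makes the ganglioside GM3, fell by 0.38. Of 11 tested genes of lysosomal glycolipid breakdown 7 were higher and 1 lower, led by Arsa, arylsulfatase A, at 0.83. S1pr3, a receptor of sphingosine 1-phosphate, measured 0.219, 0 and 0.217 CPM in WT, 5.13, 4.30 and 4.42 CPM in dKO and 1.34, 1.04 and 1.52 CPM in tKO, and S1pr1, abundant in endothelium, rose by 0.68.

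Synthesis of the phospholipid partners gave 1 higher and 5 lower of 17 tested (none called with the liver dispersion). The gene that rose was Chka, choline kinase, with 106, 107 and 107 CPM in WT and 161, 146 and 159 CPM in dKO; Chpt1, the last step to phosphatidylcholine, fell by 0.29, and Pcyt1a and Pemt were not called. Lysosomal genes as a group were higher in 22 of 32 tested and lower in 1 (with the liver dispersion 4 higher and none lower) (median log2 fold change 0.28). Ctsb, a cysteine protease, measured 1112, 1086 and 1077 CPM and 1646, 1713 and 1716 CPM, and Lamp1, a membrane glycoprotein, 496, 499.9 and 501 CPM and 591, 597 and 596 CPM. Small as the second difference is, no libraries overlapped. Gpnmb, which marks lysosomal stress in macrophages and other cells, rose by 1.49, and Ctsc, cathepsin C, was the one that fell.

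Cholesterol genes were higher in 18 of 29 tested and lower in 2 (with the liver dispersion 3 higher and none lower) (median log2 fold change 0.16). Hmgcs1, an early enzyme of the pathway, measured 258, 244 and 246 CPM in WT and 329, 328 and 332 CPM in dKO, and the groups did not overlap. Mvk, mevalonate kinase, rose by 0.80 and the driver Srebf2 by 0.35. Dhcr7, a late step, was not called.

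Bile acid genes changed in both directions, 10 higher and 9 lower of 26 tested (with the liver dispersion 2 higher and 6 lower). Without WT replicate 2 only 5 were called higher. Cyp8b1, which sets the share of cholic acid, measured 12.9, 15.8 and 12.9 CPM in WT and 4.27, 4.19 and 4.53 CPM in dKO, and Cyp27a1, of the alternative pathway, 238, 229 and 229 CPM and 129, 129 and 133 CPM. Cyp7b1, the next enzyme of that pathway, fell by 1.19. Cyp7a1, the rate-limiting enzyme of the classic pathway, was near the detection limit, at 0.767, 0.973 and 1.73 CPM and 1.81, 2.79 and 1.73 CPM, and its groups overlapped although it was called higher. The bile salt export pump Abcb11 went from 92.2, 93.5 and 96.8 CPM to 59.3, 55.2 and 52.3 CPM, with 108, 107 and 106 CPM in tKO, above both. Nr0b2 (SHP), the feedback repressor, and Fgfr4, the receptor of the intestinal signal, rose by 1.13 and 0.76.

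In sugar metabolism 15 of 25 tested genes were higher and 4 lower (with the liver dispersion 5 higher and 1 lower). Hk2, a hexokinase not typical of hepatocytes, measured 3.95, 5.08 and 3.14 CPM in WT, 15.9, 15.7 and 14.6 CPM in dKO and 5.26, 7.08 and 5.80 CPM in tKO. Pfkfb3, which activates glycolysis, rose by 1.03, the gluconeogenic Pck1 by 1.03, and the fructose enzyme Khk fell by 0.40. Pdk4, which blocks pyruvate oxidation, rose from 63.8, 53.1 and 60.03 CPM to 221, 214 and 220.4 CPM, and Ppargc1a, a coactivator of fasting genes, by 1.53. Few nuclear genes of oxidative phosphorylation were called, 2 higher and 3 lower of 35 tested with a median of -0.04, and of 7 urea cycle genes Cps1, Otc and Arg1 were not called.

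Hepatocyte identity genes were lower in 14 and higher in 4 of 25 tested (none called with the liver dispersion), and no member changed by 2-fold. Hnf4a, the central transcription factor of hepatocytes, measured 159, 157 and 158 CPM in WT, 124, 122 and 120.4 CPM in dKO and 164, 184 and 172 CPM in tKO, and Foxa2 fell by 0.42. Alb, albumin, measured 47820, 48760 and 49640 CPM in WT and 41480, 42260 and 41570 CPM in dKO, and tKO was lower again at 38460, 37620 and 36790 CPM. For Hnf4a the dKO libraries were the lowest, for albumin the tKO libraries. Cebpb, which rises in the acute phase, was the identity factor with the largest rise, at 0.63.

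Male-biased liver genes, which pulsatile growth hormone keeps high in male mice, were lower in 16 and higher in 3 of 22 tested (with the liver dispersion 4 higher and 12 lower), with a median log2 fold change of -1.12. Mup3, a major urinary protein, measured 1445, 1426 and 1411 CPM in WT and 357, 369 and 366 CPM in dKO, and Slco1a1, an anion transporter, 69.8, 66.8 and 69.02 CPM and 16.1, 18.6 and 19.4 CPM. Hsd3b5, a steroid enzyme of male liver, measured 2.41, 2.59 and 2.17 CPM and 0.320, 0 and 0 CPM. All 3 left the groups apart. The exceptions were Mup20, which rose from 42.1, 42.9 and 38.03 CPM to 200.3, 219.9 and 212 CPM and to 1105, 1074 and 996 CPM in tKO, C6 and Selenbp2. Mup genes are near-identical copies, so reads may be split between them in error.

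Female-biased genes gave no such lean, with 7 higher and 7 lower of 20 tested (with the liver dispersion 5 higher and 5 lower). Cyp3a41a rose by 0.62 and Sult2a1 by 1.20, while Sult3a1 fell by 3.02 and Cyp3a44 fell by 1.38. In the growth hormone axis Ghr, the receptor, fell by 0.34, Igf1 from 476, 483 and 454 CPM to 244, 259 and 258 CPM, and the feedback inhibitor Socs2 fell by 0.36. Socs3, an inhibitor induced by interleukin 6, rose by 0.90. The labels give no sex, so a difference in sex or hormone state between the groups cannot be told apart from genotype here; the Y-linked gene Ddx3y had 1 count over the WT libraries and none in dKO, and no other listed Y gene appeared in the files.

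Cytochrome P450 genes were higher in 15 and lower in 23 of 53 tested (with the liver dispersion 4 higher and 6 lower). Of the 48 with at least 10 counts in every WT library 12 were higher and 23 lower. Cyp2b10, the classic target of the receptor CAR, measured 103, 120.5 and 116 CPM in WT, 56.1, 53.6 and 52.5 CPM in dKO and 15.9, 13.8 and 12.6 CPM in tKO, a stepwise order in which no groups overlapped. Cyp2a22 measured 17.3, 15.7 and 18.2 CPM, 54.03, 55.1 and 57.8 CPM and 8.67, 8.22 and 7.42 CPM, so dKO lay above and tKO below WT. Cyp2c29 fell by 0.69 and Cyp2c40 fell by 0.93, Cyp2e1 rose by 0.26, and Cyp3a11 was not called. Members of these subfamilies share sequence, so reads may be split between neighbours. Of 38 tested conjugation genes 10 were higher and 15 lower (with the liver dispersion 6 higher and 4 lower), with Gstm3, a glutathione transferase, at 11.7, 9.19 and 12.9 CPM in WT, 52.00, 45.6 and 49.9 CPM in dKO and 155, 170 and 156 CPM in tKO.

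Many matrix genes were low in or absent from WT hepatocytes. Of 49 listed matrix genes 34 were tested, 28 were higher and 2 lower (with the liver dispersion 24 higher and none lower), but only 16 had 10 counts in every WT library, of which 12 were higher and 2 lower. Col4a1, a chain of basement membrane collagen, measured 25.3, 26.8 and 24.1 CPM in WT and 81.4, 85.98 and 76.02 CPM in dKO, fully apart. Postn (periostin), a matrix protein of fibroblasts, had no count in WT and 114 counts over the dKO libraries, at least 38-fold higher against a floor of 3 counts over the group. Fn1, fibronectin, which hepatocytes secrete, fell by 0.29. Sox9, a factor of biliary and progenitor cells, rose from 70.05, 76.2 and 86.6 CPM to 215, 206 and 196 CPM, while the biliary keratin Krt19 had means of 0.253 and 0.286 CPM. Of 27 tested genes of growth factor signalling 19 were higher and 4 lower (with the liver dispersion 11 higher and none lower). Of the 21 with at least 10 counts in every WT library 13 were higher and 4 lower. Vegfa, the endothelial growth factor, rose from 271, 278 and 262 CPM to 456, 435 and 406 CPM and was at 299, 296 and 266 CPM in tKO, and Inhba, an activin subunit, by 0.99. Gjb1, the main gap junction protein of hepatocytes, fell by 0.69, and Gja1, that of other cells, rose by 3.19. Of 28 tested cell cycle genes 4 were higher and 4 lower (with the liver dispersion 1 higher and 1 lower), against 24.0% and 20.0% of all tested genes. Of the 20 with at least 10 counts in every WT library 2 were higher and 4 lower. Mki67 and Pcna were not called.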

How the data were processed

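RNA of 9 hepatocyte libraries (3 WT, 3 dKO, 3 tKO) was analysed from the authors' deposited tables per library, which hold expected counts and FPKM per gene; 6.25% of the expected counts are not whole, and a gene missing from a table was taken as 0. The submitters' processing notes name STAR 2.5.2b, DESeq2 1.30.1, Bowtie2 2.2.5, Trimmomatic 0.36 and the builds mm10 and GRCm38, without saying which tool served which experiment. Which counter was run, and whether it used strand, is not given in the sources used here. Reads of overlapping or antisense genes may thus be shared.

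Expected counts were rounded, genes were kept by edgeR's filterByExpr with a minimum count of 10, TMM factors were applied, and the counts were fitted in 1 model over the 9 libraries with edgeR 4.0.16 (robust quasi-likelihood F test, R 4.3.3, Benjamini-Hochberg over 11471 genes). CPM were computed from the counts and the TMM-scaled library totals. Alternatives used other scalings, filters, DESeq2 1.42.0, limma 3.58.1 on log2 of the deposited FPKM plus 0.1 or 1, glmTreat, the dispersion of the 8 liver libraries (from the authors' deposited counts) and libraries left out. On simulated counts of 11471 genes for dKO against WT, 82.1% of 1.5-fold, 92.2% of 2-fold and 100% of 4-fold changes were recovered. There were 15 false calls among 194. The simulation held 67, 64 and 65 genes with these changes, far fewer than the 5045 genes called in the data. It therefore cannot give the rate of false calls in the data.

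Gene lists and comparisons were chosen with earlier results of these data known. Named genes were the targeted genes, up to 12 genes per direction with the largest fold and with the largest CPM difference among calls of at least 5 CPM with groups apart and an assigned symbol, and, per list, preset key members and up to 6 with the smallest p; other members named in the text were chosen after their values were seen. Promoters come from RefSeq GRCm38.p6.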

Additional observations from a re-analysis of the deposited data

How the results depend on the processing

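Of 5045 genes called in dKO against WT, glmTreat against a 1.5-fold change kept 908, and the liver dispersion gave 1055 calls. The 734 genes higher by at least 2-fold became 361 with at least 50 counts in 3 libraries and 334 with limma on log2(FPKM + 1); the 115 lower became 61 and 45. The 3382 calls of tKO against dKO became 240 with glmTreat and 326 with the liver dispersion. Leaving out 1 WT or dKO library at a time gave 4518 to 4617 calls for dKO against WT, 750 to 786 genes higher and 115 to 136 lower by at least 2-fold. Leaving out any 1 of the 9 libraries gave 2825 to 3356 calls for tKO against dKO; leaving out tKO libraries was added after seeing the data. Small list counts for dKO against WT moved by over 1.5 times: higher heat shock genes from 2 to 1 without WT replicate 1 or dKO replicate 4 or 5, higher cell cycle genes from 4 to 2 without WT replicate 2 or 3 or dKO replicate 5, lower oxidative phosphorylation genes from 3 to 1 and 0 without WT replicate 3 and dKO replicate 4, and higher ones from 2 to 1 without WT replicate 2 or dKO replicate 5 or 6. Stricter filters and larger pseudocounts remove or shrink low genes by construction. DESeq2 called 4078 genes, and the 6 libraries alone 5166. Upper quartile scaling gave 2343 higher and 2987 lower calls, and 4639 of the 5045 genes were also called there; the higher share was 85.1% of calls with glmTreat and 82.4% with the liver dispersion. Of the named genes tested in each setting (500 to 554), none changed direction with its call; glmTreat ended 241 of their calls and the liver dispersion 237. A fit of the 6 libraries alone holds no tKO library, so it gave no value for tKO against dKO. No paired analysis was possible because the groups share no replicate numbers. Genes below the filter were tested only without it, when 15621 genes were tested and 5347 called.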
